A study of Mus musculus with 15 samples.

Results

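The genes described here are 10 members of the immune checkpoint pathways, out of 46679 genes in the deposited tables. They were chosen by name and found by their Ensembl identifiers in the GENCODE mouse annotation. They comprise the receptors Pdcd1 (PD-1), Ctla4, Lag3, Tigit and Havcr2 (Tim-3), the transcription factor Tox, and the ligands Cd274 (PD-L1), Pdcd1lg2 (PD-L2), Pvr (CD155) and Lgals9 (galectin-9). RNA was sequenced from bulk tumor tissue of C57BL/6 mice, 6–8 weeks old at implantation, carrying intracranial CT2A, GL261, 005 or Mut3 tumors at the humane endpoint, and from naïve brain, with 3 mice in each of the 5 groups. CT2A (p53 WT) and GL261 (K-ras mutant/p53 mutant) are glioma lines induced with methylcholanthrene. The 005 line carries activated H-ras and AKT on a p53+/- background, and Mut3 has inactivated NF1 and p53. The 4 lines carried GFP and firefly luciferase, and 100000 cells of CT2A, GL261 or 005 were implanted, against 500000 cells for Mut3. No group received a treatment. Each tumor is a single line, so the mice of a group are replicates of that line only. The study classed GL261 and 005 as immunologically active and CT2A and Mut3 as inert from RNA data that include these libraries, so the split is not independent of the values given here.

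Checkpoint receptors are inhibitory proteins on activated T cells, and many are also found on NK or myeloid cells. PD-1 is engaged by PD-L1 and PD-L2, CTLA-4 competes with CD28 for CD80 and CD86, LAG-3 binds MHC class II, TIGIT binds PVR, and Tim-3 binds galectin-9 among other partners. Sustained expression of several of these receptors, together with the nuclear factor TOX, marks the T cell state called exhaustion. In the brain, microglia and macrophages can carry Tim-3 and PD-L1, and interferon-gamma is a known inducer of PD-L1.

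Levels are given as TPM, a share of all transcripts that is scaled to gene length. Values are listed in the order of replicates 1, 2 and 3. Of the 10 genes, 8 passed the filter on low counts and were tested, and Lag3 and Tigit did not. A gene was called when the Benjamini-Hochberg adjusted p of edgeR's quasi-likelihood test was under 0.05 and the log2 fold change was 1 or more in either direction. Errors of fold changes are standard errors. Among all 5 groups, 7 of the 8 tested genes differed at an adjusted p under 0.05, against 52.1% of all 17481 tested genes. Ctla4 was the exception, with an adjusted p of 0.0545.

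Total counts ran from 3105119 to 13130158 per library and were lowest in naïve brain. Microglia were low in CD45 in the paper's cytometry, so the CD45 transcript need not follow microglial content. With that limit, Ptprc, the pan-leukocyte gene for CD45, was used as the measure of immune content. Its TPM was 0.547, 0.290 and 0.202 in naïve brain, 1.51, 2.33 and 2.33 in CT2A, 5.38, 2.94 and 4.12 in GL261, 3.27, 20.2 and 6.09 in 005, and 0.700, 0.175 and 0.820 in Mut3. A pair of 005 libraries and one Mut3 library stood apart from their groups. Replicate 2 of 005 had the highest Ptprc level and a T cell marker sum of 404.8 TPM, against 64.8 and 208.1 TPM in the other 005 tumors. The T cell receptor complex gene Cd3g alone gave 335.4 TPM of the first sum, and 54.6 and 168.3 TPM of the others. Replicate 3 of 005 had 17.8% mitochondrial counts and a neuron and oligodendrocyte marker sum of 915.8 TPM, within the 699.4 to 1397 TPM of naïve brain, while no other tumor exceeded 232.9 TPM. Replicate 2 of Mut3 had 18.1 Ptprc counts. Since whole tissue was sequenced, fewer cells of a type and less RNA per cell cannot be told apart.

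**Figure D1:**
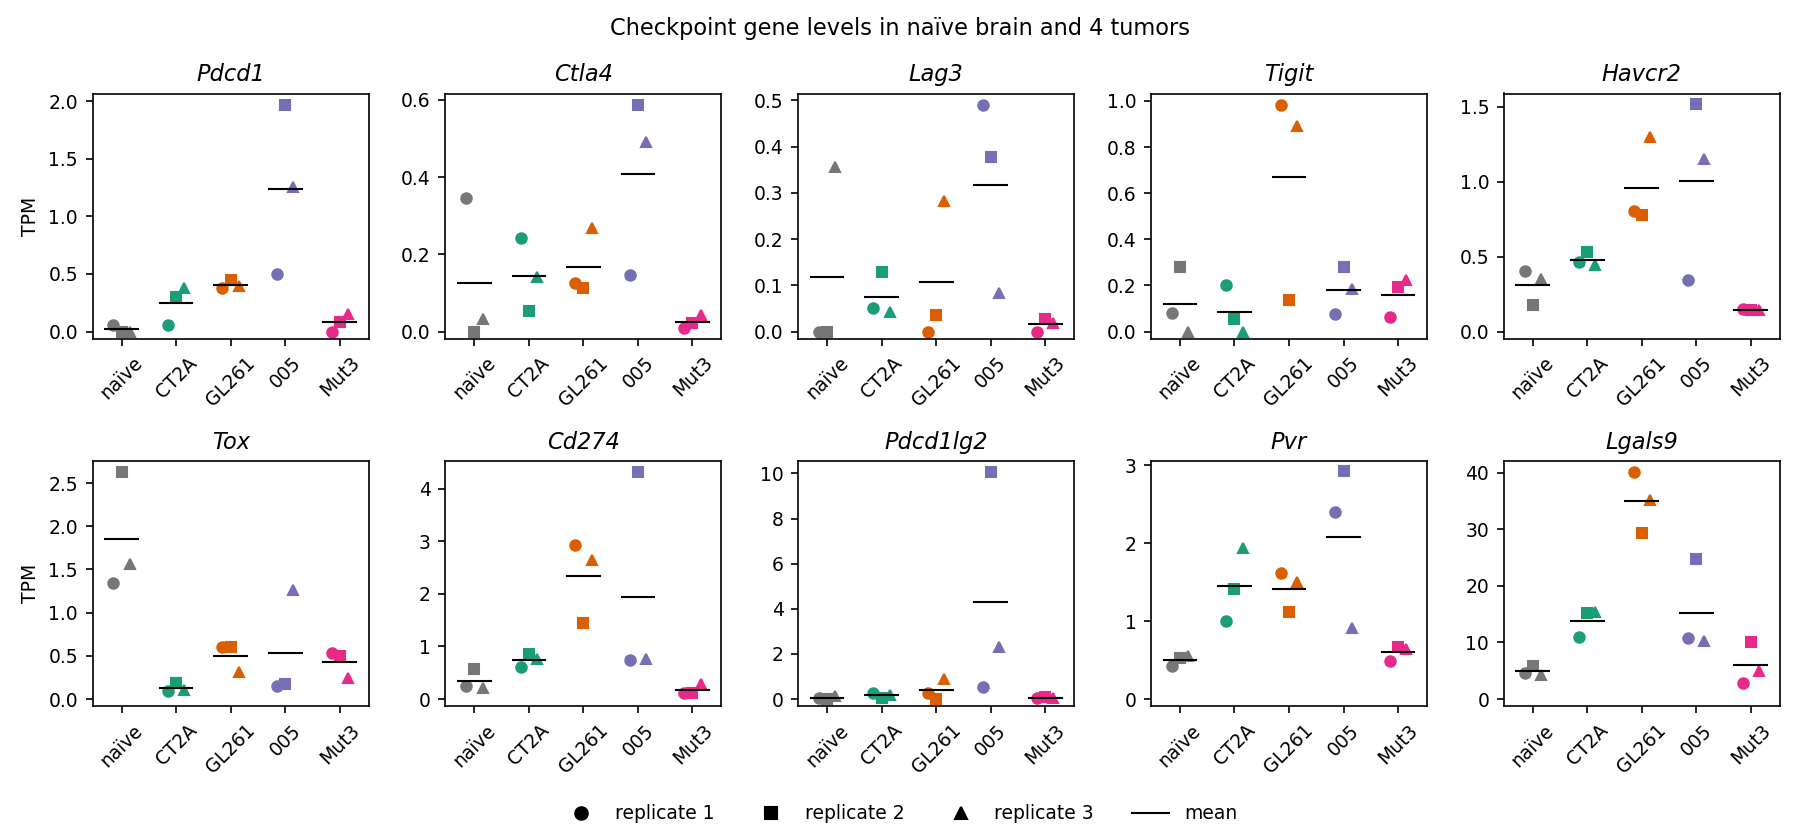
TPM of the 10 checkpoint genes in each sample, with 1 panel per gene, a separate linear axis for each, the 5 groups along the x axis and a line at each group mean. The 005 tumors are the highest 3 samples for Pdcd1, Pdcd1lg2 is dominated by replicate 2 of 005 at 10.1 TPM, and Tox is highest in naïve brain.

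Among the receptors, Pdcd1 encodes PD-1. Its TPM was 0.0558, 0 and 0 in naïve brain, 0.0603, 0.302 and 0.378 in CT2A, 0.378, 0.449 and 0.397 in GL261, 0.499, 1.97 and 1.26 in 005, and 0, 0.0849 and 0.156 in Mut3. All CT2A, GL261 and 005 tumors exceeded naïve brain. Between tumors the levels of CT2A and GL261 met, at 0.3775 TPM in CT2A replicate 3 and 0.3779 TPM in GL261 replicate 1, and in CPM CT2A replicate 3 (2.711) lay above all GL261 tumors (2.042 to 2.706). All 005 tumors lay above the other 12 samples on both scales. The 3 naïve brains together held 1 Pdcd1 count, so the fold over naïve brain is poorly bounded. The ratio of depth-scaled counts to naïve brain was 75.2 in 005 (95% exact interval 13.3 to 2990, which covers counting error only), 30.1 (5.15 to 1220) in GL261, 21.4 (3.62 to 869) in CT2A and 6.70 (1.03 to 282) in Mut3. The rise over naïve brain was called in 005 (adjusted p = 0.00714), CT2A (0.0211) and GL261 (0.0213), and not in Mut3 (0.184). It was lost without naïve replicate 2 or 3 in CT2A and GL261, and without CT2A replicate 3 in CT2A.

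Between tumors, the log2 fold change of Pdcd1 for 005 over Mut3 was 3.62 ± 0.95 (adjusted p = 0.0171). For GL261 and 005 over CT2A and Mut3, weighting each line equally, it was 2.05 ± 0.64 (adjusted p = 0.0350). The second call was lost when any one of 9 of the 12 tumors was left out, with log2 fold changes of 1.70 to 2.29. GL261 over Mut3 gave 2.24 ± 0.93 (adjusted p = 0.108) and 005 over CT2A gave 1.86 ± 0.87 (adjusted p = 0.204), neither past the threshold.

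Ctla4 encodes CTLA-4, which competes with CD28. Its TPM was 0.345, 0 and 0.0334 in naïve brain, 0.242, 0.0523 and 0.140 in CT2A, 0.125, 0.113 and 0.267 in GL261, 0.148, 0.587 and 0.490 in 005, and 0.00922, 0.0212 and 0.0433 in Mut3. All CT2A, GL261 and 005 tumors lay above all Mut3 tumors, while naïve replicate 1 lay above all but 2 of the tumors in TPM. In CPM, CT2A replicate 1 (2.676) and GL261 replicate 3 (2.599) also lay above that naïve brain (2.381). The only call was 005 over Mut3, with a log2 fold change of 3.58 ± 1.00 (adjusted p = 0.0218), lost in 3 of 15 fits that left out one library. For GL261 and 005 over CT2A and Mut3 it was 1.81 ± 0.66 (adjusted p = 0.0644).

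Lag3 and Tigit were near the limit of detection, and neither was tested in the main fit. Only the alternative fit with no filter on low counts included them. Lag3 had at most 15.4 counts in any library, and its TPM was 0, 0 and 0.357 in naïve brain, 0.0508, 0.128 and 0.0419 in CT2A, 0, 0.0358 and 0.283 in GL261, 0.490, 0.377 and 0.0830 in 005, and 0, 0.0278 and 0.0178 in Mut3. Its highest tumor values were in 005 replicates 1 and 2. Tigit had at most 17.7 counts, and its TPM was 0.0812, 0.279 and 0 in naïve brain, 0.202, 0.0545 and 0 in CT2A, 0.983, 0.139 and 0.892 in GL261, 0.0775, 0.278 and 0.185 in 005, and 0.0621, 0.192 and 0.225 in Mut3. Replicates 1 and 3 of GL261 stood above the other 13 samples. A count of 3 corresponds to 0.214 to 0.811 CPM across these libraries, so Lag3 and Tigit values in naïve brain are at or below that level.

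Havcr2 encodes Tim-3, a receptor of T cells and of myeloid cells, microglia included. Its TPM was 0.406, 0.176 and 0.349 in naïve brain, 0.464, 0.529 and 0.443 in CT2A, 0.803, 0.780 and 1.30 in GL261, 0.346, 1.52 and 1.15 in 005, and 0.149, 0.144 and 0.144 in Mut3. In TPM, the Mut3 tumors were the lowest of the 15 samples and almost equal to each other. In CPM, naïve replicate 2 (0.9935) lay below the Mut3 tumors (1.849 to 1.961). Of the 6 GL261 and 005 tumors, 5 lay above all CT2A and Mut3 tumors. Havcr2 rose over naïve brain by a log2 fold change of 2.29 ± 0.53 in GL261 (adjusted p = 0.00800), 2.14 ± 0.52 in 005 (0.0153) and 1.496 ± 0.52 in CT2A (0.0323). The 005 call was lost without 005 replicate 2, and the CT2A call without CT2A replicate 2 or 3 or naïve replicate 2. In Mut3 the value was -0.36 ± 0.53 (adjusted p = 0.607).

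Against Mut3, Havcr2 was higher in GL261 (2.66 ± 0.52, adjusted p = 0.00436), 005 (2.51 ± 0.51, 0.00545) and CT2A (1.86 ± 0.51, 0.0263) on the log2 scale. The CT2A call was lost in 5 of the 15 fits that left out one library. The difference of GL261 and 005 from CT2A and Mut3 was 1.65 ± 0.35 (adjusted p = 0.00655), and it was called in every fit that left out one library.

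Tox, the HMG-box factor of exhausted and developing T cells that is also transcribed in brain, ran the other way. Its TPM was 1.35, 2.63 and 1.57 in naïve brain, 0.0958, 0.188 and 0.103 in CT2A, 0.598, 0.597 and 0.310 in GL261, 0.146, 0.179 and 1.26 in 005, and 0.534, 0.503 and 0.240 in Mut3. Every tumor lay below every naïve brain. The log2 fold change of Tox was -2.77 ± 0.64 in CT2A, which was called (adjusted p = 0.00477). It was -1.45 ± 0.60 in 005 (adjusted p = 0.119), -1.25 ± 0.60 in Mut3 (0.107) and -0.97 ± 0.60 in GL261 (0.234).

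The spread of Tox within 005 came with brain tissue markers. Its 1.26 TPM in 005 replicate 3 accompanied the neuron and oligodendrocyte sum of 915.8 TPM, against 72.4 and 43.2 TPM in replicates 1 and 2. The part of these markers in the Tox values was not tested. Without this library, Tox was also called lower in 005 and in Mut3 than in naïve brain, and higher in GL261 than in CT2A.

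Of the ligands, Cd274 encodes PD-L1. Its TPM was 0.255, 0.573 and 0.212 in naïve brain, 0.607, 0.860 and 0.763 in CT2A, 2.94, 1.44 and 2.64 in GL261, 0.741, 4.32 and 0.770 in 005, and 0.116, 0.107 and 0.289 in Mut3. All GL261 tumors exceeded all CT2A tumors, and the 005 tumors were split, with replicates 1 and 3 within the CT2A range in TPM. In CPM, 005 replicate 3 (9.852) lay below the lowest CT2A tumor (12.25). Cd274 rose over naïve brain by a log2 fold change of 3.69 ± 0.75 in GL261 (adjusted p = 0.00415), 3.29 ± 0.74 in 005 (0.0102) and 2.19 ± 0.72 in CT2A (0.0258). The CT2A call was lost without CT2A replicate 2 or 3 or naïve replicate 1 or 3, and the 005 call without naïve replicate 1 or without 005 replicate 2, where the value was 1.77 (adjusted p = 0.0657). In Mut3 it was -0.09 ± 0.72 (adjusted p = 0.935).

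Compared with Mut3, the log2 fold change of Cd274 was 3.77 ± 0.74 in GL261 (adjusted p = 0.00447), 3.38 ± 0.73 in 005 (0.00697) and 2.28 ± 0.70 in CT2A (0.0449), the last lost in 10 of 15 fits that left out one library. GL261 and 005 exceeded CT2A and Mut3 by 2.43 ± 0.49 (adjusted p = 0.00517). Leaving out 005 replicate 2 lowered the latter to 1.67, still called.

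Pdcd1lg2 encodes PD-L2, the other PD-1 ligand. Its TPM was 0.0525, 0 and 0.121 in naïve brain, 0.259, 0.0405 and 0.172 in CT2A, 0.254, 0 and 0.894 in GL261, 0.537, 10.1 and 2.31 in 005, and 0.0539, 0.0824 and 0.0557 in Mut3. All 005 tumors exceeded all naïve, CT2A and Mut3 samples. The 3 naïve brains together held 3 counts, and the ratio of depth-scaled counts to them was 85.3 in 005 (95% exact interval 29.1 to 415), 10.5 (3.38 to 52.6) in GL261, 4.51 (1.37 to 23.4) in CT2A and 1.64 (0.432 to 9.14) in Mut3. The rise over naïve brain was called in 005 (adjusted p = 0.00904), and was lost without 005 replicate 2.

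For Pdcd1lg2 between tumors, 005 exceeded Mut3 by a log2 fold change of 5.87 ± 1.28 (adjusted p = 0.00743) and CT2A by 4.45 ± 1.175 (adjusted p = 0.0480). The latter was lost without 005 replicate 2 and in 11 other fits without one library. GL261 and 005 exceeded CT2A and Mut3 by 3.46 ± 0.84 (adjusted p = 0.0119), or by 2.75, not called, without GL261 replicate 3. In GL261, whose replicate 2 had no Pdcd1lg2 count, the difference from Mut3 was 2.47 ± 1.22 (adjusted p = 0.170).

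Pvr encodes CD155, an adhesion molecule of many tissues and tumors that is bound by TIGIT. Its TPM was 0.424, 0.523 and 0.554 in naïve brain, 1.01, 1.41 and 1.94 in CT2A, 1.61, 1.12 and 1.501 in GL261, 2.41, 2.93 and 0.915 in 005, and 0.483, 0.669 and 0.641 in Mut3. In TPM, CT2A, GL261 and 005 tumors all lay above all Mut3 tumors and naïve brains. In CPM, 005 replicate 3 (7.088) lay below Mut3 replicates 2 (8.21) and 3 (8.149). Over naïve brain, Pvr rose by 2.78 ± 0.55 (log2) in 005 (adjusted p = 0.00514), 2.53 ± 0.55 in CT2A (0.00358) and 2.31 ± 0.55 in GL261 (0.00958). In Mut3 it was 1.05 ± 0.54 (adjusted p = 0.134). GL261 and CT2A differed by -0.23 ± 0.50 (adjusted p = 0.814), and 005 exceeded Mut3 by 1.73 ± 0.51 (adjusted p = 0.0281), a call lost in 5 of 15 such fits.

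Lgals9, which encodes galectin-9, was the most abundant of the 10. Its TPM was 4.59, 5.85 and 4.23 in naïve brain, 11.0, 15.2 and 15.3 in CT2A, 40.2, 29.5 and 35.2 in GL261, 10.8, 24.9 and 10.2 in 005, and 2.80, 10.1 and 4.99 in Mut3. All GL261 tumors lay above the other 12 samples. Lgals9 rose over naïve brain by a log2 fold change of 3.69 ± 0.54 in GL261 (adjusted p = 0.000522), 2.52 ± 0.51 in CT2A (0.00259) and 2.34 ± 0.51 in 005 (0.00828). In Mut3 it was 1.11 ± 0.50 (adjusted p = 0.0877).

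Among tumors, Lgals9 was called higher in GL261 than in Mut3, by 2.58 ± 0.51 (adjusted p = 0.00448). GL261 and 005 exceeded CT2A and Mut3 by 1.20 ± 0.34 (adjusted p = 0.0244), or by 0.88, not called, without 005 replicate 2. Of the 3 005 tumors, 2 lay below every CT2A tumor in TPM. In CPM, 005 replicate 1 (58.31) lay above CT2A replicate 1 (54.48). The log2 difference of 005 from CT2A was -0.18 ± 0.48 (adjusted p = 0.837). The difference of 005 from GL261 was -1.35 ± 0.49 (adjusted p = 0.186), though the TPM ranges did not overlap.

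**Figure D2:**
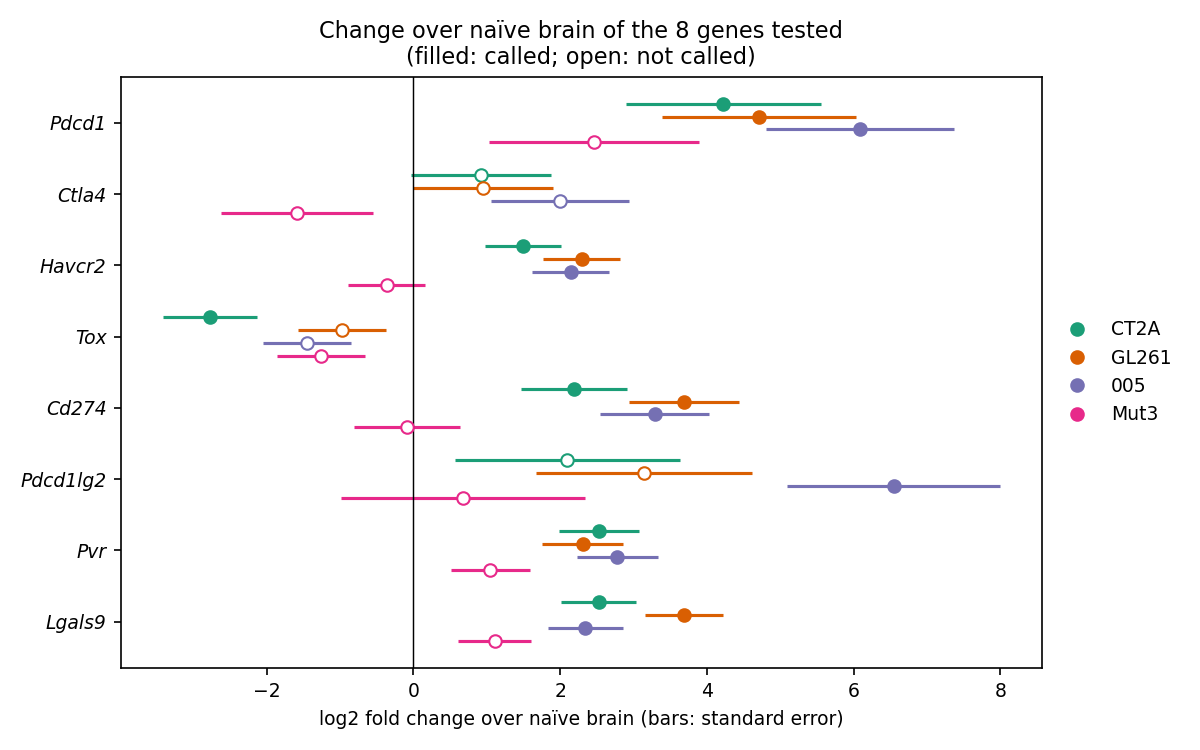
Log2 fold change over naïve brain for the 8 tested genes (x axis, points with standard error bars) in each tumor, with called genes filled. CT2A, GL261 and 005 share called rises of Pdcd1, Havcr2, Cd274, Pvr and Lgals9, while no gene is called in Mut3 and Tox lies below 0 in all 4 tumors. Fitted values of Pdcd1 and Pdcd1lg2 rest on 1 and 3 counts in naïve brain.

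Counted over the list, 6 of 8 tested genes were called in CT2A against naïve brain (5 higher, Tox lower), against 39.2% of all tested genes. In GL261, 5 were called, all higher, against 22.4%, and in 005, 6 were called, all higher, against 12.7%. In Mut3 edgeR called 0 of 8, against 37.8%, and DESeq2 also called 0, with 1 gene at an unadjusted p under 0.05. The 8 genes had a median log2 fold change of 2.15 for CT2A, 2.73 for GL261, 2.56 for 005 and 0.29 for Mut3, while the median of all tested genes was -0.04, -0.08, 0.01 and 0.11. These 4 comparisons share the naïve brains. Without 005 replicate 2, 3 genes remained in 005 (Lgals9, Pdcd1 and Pvr), and without CT2A replicate 3, 3 remained in CT2A (Lgals9, Pvr and Tox).

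Pairs of tumors gave 6 called genes of 8 for 005 over Mut3 (19.8% of all tested genes called), 3 for GL261 over Mut3 (17.2%) and 2 for CT2A over Mut3 (12.8%). One gene was called for 005 over CT2A (4.11%). None was called for GL261 over CT2A (7.77%) or 005 over GL261 (2.62%) by edgeR, where DESeq2 called 1 each and 3 and 2 genes had an unadjusted p under 0.05. Every called difference of the pairs against Mut3 was higher in the other tumor. Without 005 replicate 2, 005 over Mut3 kept 3 genes (Cd274, Havcr2 and Pdcd1lg2). For CT2A over Mut3, 5 genes were called without 005 replicate 3 and 0 without CT2A replicate 2, CT2A replicate 3 or Mut3 replicate 1.

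For GL261 and 005 over CT2A and Mut3, 5 of 8 were called, all higher (Pdcd1, Havcr2, Cd274, Pdcd1lg2 and Lgals9), against 16.9% of all tested genes. The median of the 8 log2 fold changes was 1.73, and that of all tested genes 0.10. Tox, at 0.81 ± 0.43 (adjusted p = 0.188), and Pvr, at 0.75 ± 0.35 (adjusted p = 0.141), were not called. Without 005 replicate 2, or without GL261 replicate 3, 3 genes were called, Cd274 and Havcr2 in both cases with Pdcd1lg2 in the first and Lgals9 in the second.

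Cell type markers moved with the same split, for which 16.9% of all tested genes were called. All 10 tested T cell markers of the 12 listed were called higher in GL261 and 005. The summed TPM of the 12 ran from 69.9 to 138.3 in GL261, 64.8 to 404.8 in 005, 22.1 to 42.9 in CT2A, 6.25 to 16.8 in Mut3 and 4.78 to 12.2 in naïve brain. Cd3g was the largest part of this sum in every tumor, so the sum mainly follows that gene. Of 8 microglia and macrophage markers 6 were called higher, with sums of 236.9 to 354.3 TPM in GL261, 196.9 to 545.7 in 005, 106.6 to 128.4 in CT2A, 23.8 to 77.4 in Mut3 and 88.7 to 93.9 in naïve brain, and none was at 0 in any library. Of 8 neuron and oligodendrocyte markers 7 were called higher, and of 3 endothelial markers 0, with 2 at an unadjusted p under 0.05 and fold changes under the threshold. The log2 fold change of Ptprc itself was 2.41 ± 0.49 (adjusted p = 0.00555). Beyond the ratio to Ptprc given next, the part of these cell types in the checkpoint gene differences was not tested.

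Relative to Ptprc, which sets each gene against the CD45 transcript of the same tumor, the order of the tumors changed. Cd274 per Ptprc, as a ratio of TPM, was 0.403, 0.369 and 0.327 in CT2A, 0.546, 0.490 and 0.641 in GL261, 0.226, 0.214 and 0.127 in 005, and 0.166, 0.612 and 0.352 in Mut3. All GL261 tumors lay above all CT2A tumors and all 005 tumors below them. Lgals9 per Ptprc was 7.32, 6.53 and 6.58 in CT2A, 7.48, 10 and 8.54 in GL261, 3.31, 1.23 and 1.68 in 005, and 4.00, 57.8 and 6.09 in Mut3. The 005 tumors were the lowest of the 12 for this ratio.

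Pdcd1 per Ptprc overlapped between all pairs of tumors, at 0.0400, 0.129 and 0.162 in CT2A, 0.0703, 0.152 and 0.0966 in GL261, 0.153, 0.0974 and 0.206 in 005, and 0, 0.485 and 0.190 in Mut3. Replicate 2 of Mut3 had the highest ratio of the 12 tumors for Pdcd1, Lag3, Tigit, Havcr2, Tox, Pvr and Lgals9, and its divisor was 18.1 counts. Pvr per Ptprc was 0.668, 0.603 and 0.832 in CT2A, 0.300, 0.379 and 0.365 in GL261, 0.736, 0.145 and 0.150 in 005, and 0.690, 3.83 and 0.782 in Mut3. The GL261 ratios were below all those of CT2A and Mut3.

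**Figure D3:**
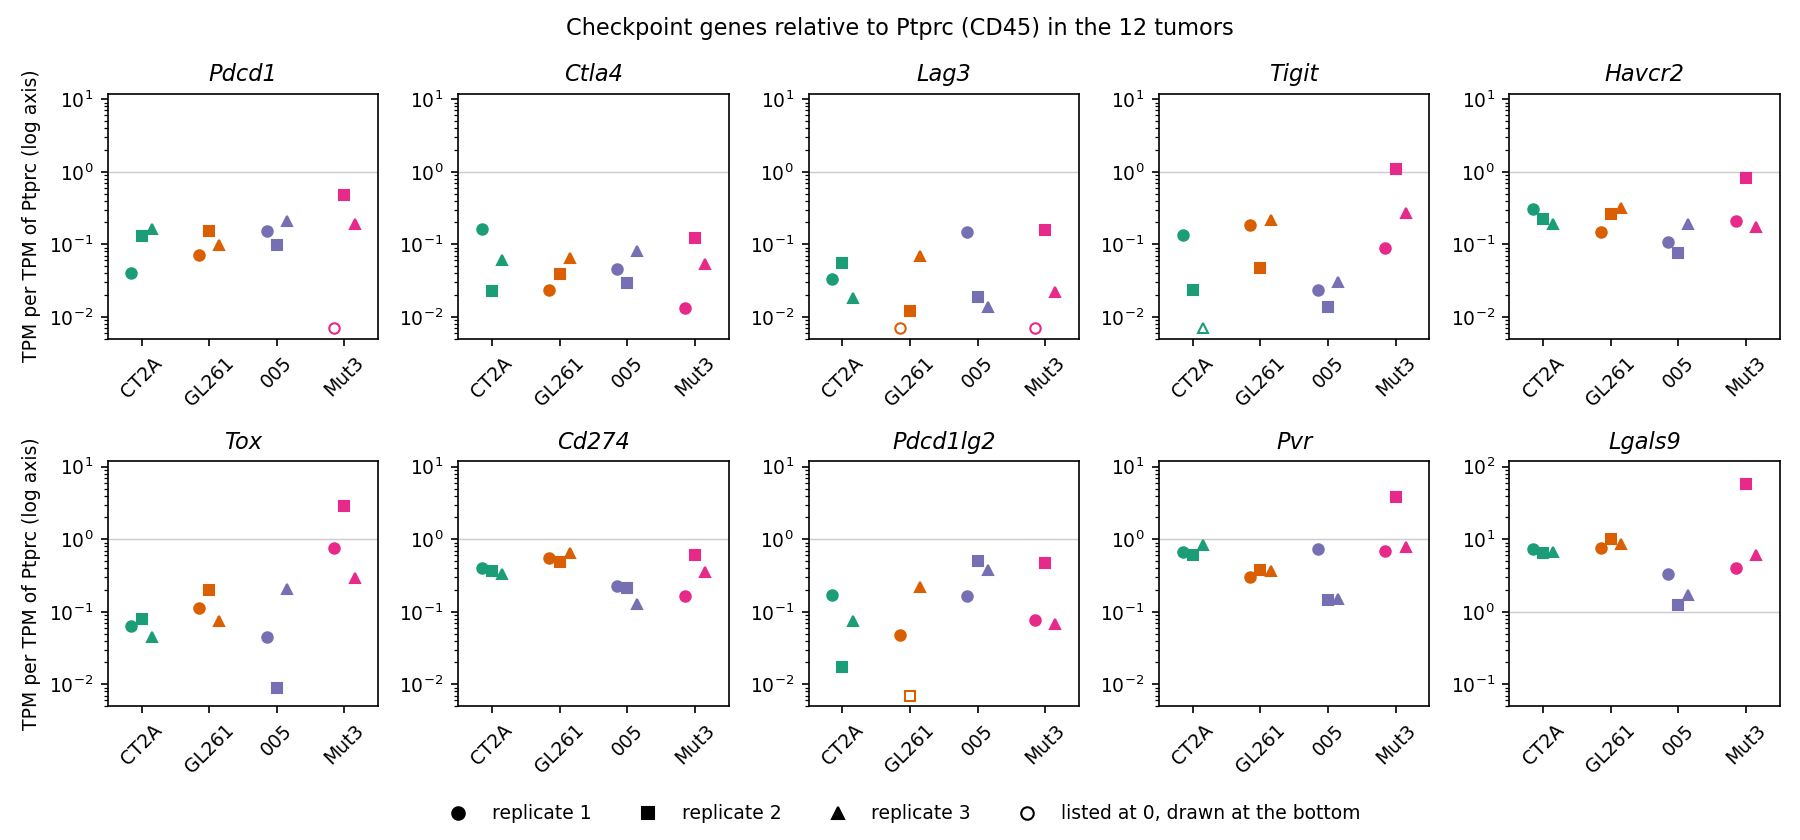
TPM of each checkpoint gene divided by TPM of Ptprc in the 12 tumors, on log axes that are the same for all genes but Lgals9, with open points at the bottom for genes listed at 0 and a grey line at 1. Replicate 2 of Mut3 (square) is high in most panels, and Lgals9 and Cd274 lie lower in 005 than in CT2A and GL261.

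Fitted with the Ptprc count as the library scale over the 12 tumors, GL261 and 005 against CT2A and Mut3 gave 2 called genes of 8, both lower, against 71.3% of all tested genes, since this scale shifted the median of all genes to -2.21. The median of the 8 was -0.69. Pvr fell by 1.68 ± 0.72 (adjusted p = 0.0303) and Lgals9 fell by 1.55 ± 0.66 (adjusted p = 0.0291) relative to Ptprc on the log2 scale. Pdcd1 was at -0.24 ± 0.98 (adjusted p = 0.840), Ctla4 at -0.54 ± 1.03 (0.644), Havcr2 at -0.84 ± 0.80 (0.343), Cd274 at -0.18 ± 0.72 (0.836) and Pdcd1lg2 at 0.51 ± 0.95 (0.638). Tox was at -1.44 ± 0.73 (adjusted p = 0.0677), and it was called lower with limma on the log2 ratio (-1.67, 0.0344), with Cd3g as the divisor (-2.12, 0.00293), without 005 replicate 3 (-2.30, 0.0108) and without Mut3 replicate 3 (-1.68, 0.0349). With standard errors this wide, values near 0 do not show equal ratios. Without Mut3 replicate 2 the count was 0 of 8, as it was without GL261 replicate 1 or 3, and it was 1 without 005 replicate 3 (Tox), CT2A replicate 1, CT2A replicate 3 or GL261 replicate 2.

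Tox per Ptprc was 0.0636, 0.0807 and 0.0443 in CT2A, 0.111, 0.203 and 0.0753 in GL261, 0.0446, 0.00885 and 0.207 in 005, and 0.763, 2.87 and 0.293 in Mut3. All Mut3 ratios lay above those of the other 9 tumors. Between pairs on this scale, Tox was called lower in CT2A (-4.36 ± 1.16, adjusted p = 0.00260), GL261 (-3.32 ± 1.10, 0.00525) and 005 (-3.91 ± 1.13, 0.00132) than in Mut3. It was the one gene called for CT2A over Mut3 (56.6% of all tested genes called). Pvr was lower as well for GL261 over Mut3 (74.9%), and Pvr and Lgals9 for 005 over Mut3 (78.3%). Without Mut3 replicate 2, these counts became 0 for CT2A, 0 for GL261 and 1 (Tox) for 005. No gene was called among CT2A, GL261 and 005 by edgeR or DESeq2, where 1.53% of all tested genes were called for GL261 over CT2A, 1.28% for 005 over CT2A and 0.978% for 005 over GL261. Lgals9 in 005 over GL261 (-2.07 ± 0.95) was the 1 gene there with an unadjusted p under 0.05, and the other pairs had 0.

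**Figure D4:**
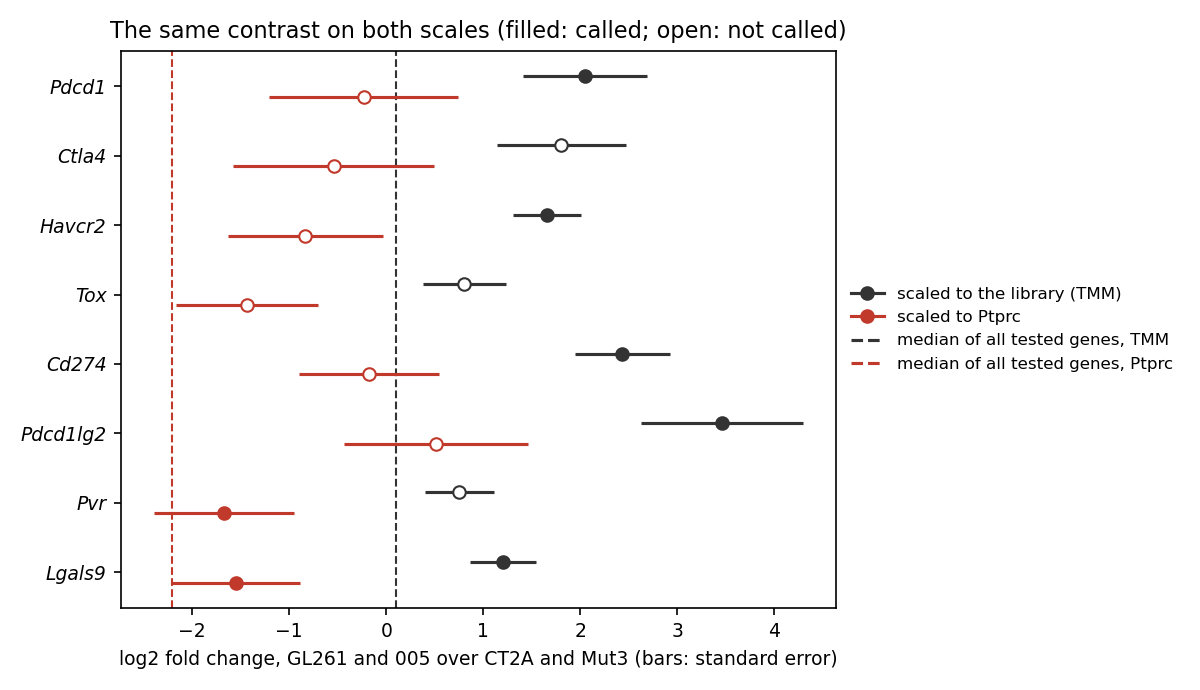
Log2 fold change of GL261 and 005 over CT2A and Mut3 for the 8 tested genes (x axis, standard error bars) scaled to the library by TMM and to Ptprc, with called genes filled and dashed lines at the median of all tested genes. The TMM values lie between 0.75 and 3.46, and the Ptprc values between -1.68 and 0.51 around a median of all genes of -2.21.

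Across the 15 samples, the genes whose log2 CPM followed each checkpoint gene most closely were listed as a description, since the samples share groups and immune content. Pdcd1 was closest to Ms4a4b (Pearson r = 0.958), Cxcr6 (0.951) and Cd8a (0.95), genes of T cells. Cd274 was closest to Gbp4 (0.976), Iigp1 (0.973) and Scimp (0.971), the former pair being interferon-inducible GTPases. Lgals9 was closest to the interferon-response genes Ifi27l2a (0.991), Zbp1 (0.980) and Irf9 (0.971). Pdcd1lg2 was closest to Ifng (0.905), Ttc12 (0.887) and Ccl8 (0.879). Havcr2 followed Adcy7 (0.954), Socs3 (0.954) and Samsn1 (0.949), and Ctla4 followed Cd200r1 (0.872), Sash3 (0.872) and Klrc1 (0.869). Pvr followed Nfe2l2 (0.980), Asah1 (0.971) and Npc2 (0.969), and Tox followed Hspb3 (0.923), Rnf144b (0.907) and Coq10a (0.899). The r with Ptprc was 0.905 for Pdcd1, 0.893 for Cd274 and -0.53 for Tox.

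Of the interferon-gamma list (Ifng, Irf1, Gbp2, Cxcl9 and Cxcl10), 5 of 5 genes were called higher in GL261 and 005, against 16.9% of all tested genes called. Their median log2 fold change was 2.92, against 0.10 for all tested genes. Ifng itself rose by 3.04 ± 0.81 (adjusted p = 0.0181) and Cxcl9 by 3.64 ± 0.78 (adjusted p = 0.00669). The summed TPM of the list ran from 127.2 to 252.1 in GL261, 93.1 to 1156 in 005, 51.0 to 68.7 in CT2A, 8.75 to 37.8 in Mut3 and 10.4 to 19.2 in naïve brain. Relative to Ptprc, 0 of 5 were called for the same split by edgeR, with 0 at an unadjusted p under 0.05, beside 71.3% of all tested genes called. The median of the 5 on that scale was -0.0085, against -2.21 for all tested genes.

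Promoter sequence is shown for the 3 ligands whose levels lay closest to interferon genes. RefSeq windows of 300 bases, 250 before and 50 from the transcription start, were found for 7 of the 10 genes (Pdcd1, Ctla4, Tigit, Havcr2, Cd274, Pdcd1lg2 and Lgals9). They were searched on both strands for GAAA and GAAA with any 2 bases between them (ISRE-like, in 3.44% of 32851 mouse windows), TTCNNNGAA (GAS-like, 8.30%) and GGGA and TTCC with any 2 bases between them (kappaB-like, 1.47%). The 250 bases before the start are printed 5′ to 3′ on the strand of the gene, with matches in capitals, from GRCm38.p6, at chr11:78984925-78985174 (minus strand) for Lgals9, chr19:29367188-29367437 (plus) for Cd274 and chr19:29410669-29410918 (plus) for Pdcd1lg2.
Lgals9: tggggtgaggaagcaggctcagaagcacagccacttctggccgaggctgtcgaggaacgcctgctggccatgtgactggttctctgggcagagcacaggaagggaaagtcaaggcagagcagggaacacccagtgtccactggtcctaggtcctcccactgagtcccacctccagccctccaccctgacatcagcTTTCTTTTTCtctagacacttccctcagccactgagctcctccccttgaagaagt
Cd274: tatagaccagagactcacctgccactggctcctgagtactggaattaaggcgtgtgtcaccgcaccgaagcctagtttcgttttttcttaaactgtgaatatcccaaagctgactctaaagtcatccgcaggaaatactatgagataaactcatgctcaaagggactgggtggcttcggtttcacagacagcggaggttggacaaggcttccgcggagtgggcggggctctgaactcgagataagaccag
Pdcd1lg2: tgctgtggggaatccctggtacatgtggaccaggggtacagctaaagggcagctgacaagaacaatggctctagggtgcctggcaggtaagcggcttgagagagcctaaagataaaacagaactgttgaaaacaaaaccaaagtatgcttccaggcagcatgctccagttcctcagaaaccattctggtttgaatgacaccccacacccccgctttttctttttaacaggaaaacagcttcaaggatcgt
Lgals9 was the one gene of the 7 with a match. It held the reverse-strand form of the ISRE-like letters in both TTTCTTTTTC, starting at base -55, and TTTCTGTTTC, starting at base 16 after the start, where the start is base 1. The Cd274 and Pdcd1lg2 windows held none of the 3 letter patterns. A match describes the letters only.

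Of 18 other inhibitory receptors and ligands, 14 were tested and 6 were called for GL261 and 005 over CT2A and Mut3, all higher, with a median log2 fold change of 1.46. They were Cd160, a receptor of NK and CD8 T cells (3.02 ± 0.76, adjusted p = 0.0140), its ligand Tnfrsf14 (2.87 ± 0.75, 0.0192), the CD47 receptor Sirpa (2.11 ± 0.28, 0.000606), the CD200 receptor Cd200r1 (2.07 ± 0.70, 0.0487), the CTLA-4 and CD28 ligand Cd86 (1.86 ± 0.46, 0.0138) and Vsir, which encodes VISTA (1.61 ± 0.35, 0.00720). These counts stand beside the 16.9% of all tested genes called. Sirpa was at 21.3 to 45.6 TPM in naïve brain, and 005 replicate 3, the library with the high brain markers, was at 21.5 TPM while the other 11 tumors were at 14.1 TPM or lower. Relative to Ptprc, 6 of the 14 were called for this split, all lower (Cd200, Entpd1, Ceacam1, Nectin2, Cd276 and Cd47), beside 71.3% of all tested genes called on that scale. The median of the 14 was -0.99 against -2.21 for all tested genes, and the 6 genes lay between -3.35 and -2.18.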

How the data were processed

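RNA from 15 samples (3 mice in each of 5 groups) was sequenced on Illumina instruments. Per the labels, the authors used STAR v2.4.2a with a GENCODE mouse reference, then Picard (duplicate marking) and RNA-SeQC, and the submitters' processing notes list Salmon, DESeq2 1.18.1 and mm10. The annotation release was not given in the sources used here. The authors deposited expected counts, which need not be whole, and TPM. The ratio of count to TPM was a gene factor times a sample factor (4644 genes, largest log2 residual 9.6e-10), so both hold the same measurement.

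Identifiers were matched to GENCODE M21 (46269 of 46679 genes). Counts were rounded and tested with edgeR 4.0.16 in R 4.3.3 (filterByExpr, TMM, quasi-likelihood fit to all 15 samples, no covariate). For the ratio to Ptprc, the 12 tumors were refitted with library sizes proportional to the Ptprc count. Naïve brain, with 6.68 to 21.7 Ptprc counts, was left out. The fit took each Ptprc count as known. Its sampling error was not fitted on its own, is shared by all genes of a sample, and adds to the spread between replicates.

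The members and lists were chosen with earlier results of these data known. All 10 members are described. One gene of the interferon-gamma list and part of the lines' genotypes are not reported here. Of the other inhibitory genes, those called for GL261 and 005 over CT2A and Mut3 were to be named, up to 8 by size of change, and for each tested member the 3 protein-coding genes with the highest Pearson r of log2 CPM (prior count 2). Sirpa in single samples and the genes called lower relative to Ptprc were named after their values were seen.

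On simulated counts for the 17481 tested genes, with 200 changed between GL261 and 005 and CT2A and Mut3, the edgeR steps called 12% of the 50 genes changed by 1 on the log2 scale, 68% at 2, 94% at 3 and 98% at 4, with 7 unchanged genes called. The changed genes were drawn only from those above a minimum expected count, and the groups otherwise shared each gene's mean. These rates need not hold for members with few counts in a group. Alternatives were DESeq2 1.42.0, library size scaling, no filter or a mean count of at least 10, limma 3.58.1 on log2(TPM + 1), no fold threshold, only the groups compared, a replicate block, leaving out each library and, added after the data were seen, Cd3g as the divisor. The labels number the replicates without naming animals, so p-values measure the spread between these samples. Replicates of a group differed by more than counting noise (chi-square per degree of freedom 14.1 to 257.9). Promoters came from RefSeq on GRCm38.p6.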

Additional observations from a re-analysis of the deposited data

Results flagged for a closer look

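With 3 samples per group, no test for a single far sample was made. The results below are genes whose change from naïve brain differed between 2 tumors by the test of that difference (edgeR, adjusted over all genes), each given as a log2 fold change between the tumors. Against Mut3, Havcr2 was higher by 1.86 in CT2A (adjusted p = 0.0263), 2.66 in GL261 (0.00436) and 2.51 in 005 (0.00545). Cd274 was higher by 2.28 in CT2A (0.0449), 3.77 in GL261 (0.00447) and 3.38 in 005 (0.00697), and Lgals9 by 2.58 in GL261 (0.00448).

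In 005 against Mut3, Pdcd1 differed by 3.62 (adjusted p = 0.0171), Ctla4 by 3.58 (0.0218), Pdcd1lg2 by 5.87 (0.00743) and Pvr by 1.73 (0.0281). Without 005 replicate 2, the calls of Pdcd1, Ctla4 and Pvr were lost. Pdcd1lg2 also differed between 005 and CT2A, by 4.45 (adjusted p = 0.0480), and this call was lost in 12 of 15 fits that left out one library.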

How the results depend on the processing

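Of 1427 values of 66 fold changes under the alternatives, 1272 kept their direction and side of the threshold. Of these 1272, 845 came from leaving out one library, often one outside the comparison. Another 66 came from dropping the fold threshold, which reused the main fit. Values not called in either fit also count as kept, so this total does not measure how stable the calls were. With limma on log2(TPM + 1), 31 values were kept and 21 calls were lost. Fits of only the groups compared kept 34 values, lost 9 calls and gained 2. The share of all tested genes called is not given for the alternative fits, those without one library included. A changed count of checkpoint genes can therefore not be told apart from changed calls over all genes. Counts of called checkpoint genes moved by over 1.5 times as follows, and the cause was not tested. With limma on log2(TPM + 1), where the pseudocount exceeds most levels, 2 genes were called in CT2A and 2 in GL261 against naïve brain, 3 in 005 against naïve brain, 2 for 005 over Mut3, 0 for CT2A over Mut3, 0 for 005 over CT2A and 2 for GL261 and 005 over CT2A and Mut3. With DESeq2 the counts were 4 for CT2A over Mut3, 1 for GL261 over CT2A and 1 for 005 over GL261. Fits of only the groups compared gave 1 for 005 and 1 for Mut3 against naïve brain, 3 for 005 over Mut3, 4 for CT2A over Mut3, 3 for GL261 over CT2A and 0 for 005 over CT2A. Library size scaling gave 1 for CT2A over Mut3 and 0 for 005 over CT2A, and a mean count of at least 10 gave 0 for 005 over CT2A. The fit with no filter, which also tested Lag3 and Tigit, gave 1 for 005 over GL261. Relative to Ptprc, limma on the log2 ratio gave 1 for GL261 over Mut3.

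Deviations from group means of same-numbered samples correlated at a mean r of -0.03 (30 pairs, 1 above 0.1). Those of other samples correlated at 0.02 (60 pairs, 14 above 0.1, at most 0.475). Deviations within a group sum to 0, so the second mean is no independent reference for the first. The values showed no sign of a pairing by replicate number, but they cannot exclude one or a batch. With the replicate block, 1 gene was called for CT2A over Mut3 and 0 for 005 over CT2A, and relative to Ptprc 1 for GL261 over Mut3 and 0 for GL261 and 005 over CT2A and Mut3, where Pdcd1 turned to 0.11.

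Leaving out one library gave 3 to 6 called genes in CT2A, 4 to 6 in GL261, 3 to 7 in 005 and 0 to 2 in Mut3 against naïve brain, 0 to 1 for GL261 over CT2A, 0 to 1 for 005 over CT2A, 0 to 5 for CT2A over Mut3, 0 to 0 for 005 over GL261, 3 to 4 for GL261 over Mut3, 3 to 7 for 005 over Mut3 and 3 to 6 for GL261 and 005 over CT2A and Mut3. Relative to Ptprc the ranges were 0 to 3 for GL261 and 005 over CT2A and Mut3, 0 to 2 for CT2A over Mut3, 0 to 2 for GL261 over Mut3 and 1 to 3 for 005 over Mut3. Directions that turned, none of them called, were Cd274 in Mut3 over naïve brain (0.0751 with a mean count of at least 10, -0.74 to 0.39 without one library), Ctla4 there (-2.31 to 1.13 without one library) and, relative to Ptprc for GL261 and 005 over CT2A and Mut3, Cd274 (-0.36 to 0.0695), Pdcd1 (-0.58 to 0.25) and Pdcd1lg2 (-0.40 to 1.14, and -0.14 with Cd3g as divisor). The planned Cd3e divisor was not run, since Cd3e was at 0 in CT2A replicate 2 and Mut3 replicate 2. Depth limits Lag3, Tigit and every value of naïve brain for Pdcd1 and Pdcd1lg2.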

Other observations

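The balance of the PD-1 ligands varied among tumors. Pdcd1lg2 per Cd274, as a ratio of TPM, was 0.725, 2.33 and 2.99 in the 005 tumors, 0.427, 0.0471 and 0.225 in CT2A, 0.0864, 0 and 0.339 in GL261, 0.464, 0.770 and 0.193 in Mut3, and 0.206, 0 and 0.571 in naïve brain. Replicates 2 and 3 of 005 were the samples with more PD-L2 than PD-L1 transcript, and 005 replicate 1 lay below Mut3 replicate 2.

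The summed TPM of Cd274 and Pdcd1lg2 per TPM of Pdcd1 was 14.4, 2.99 and 2.48 in CT2A, 8.44, 3.22 and 8.89 in GL261, 2.56, 7.30 and 2.45 in 005, and 2.23 and 2.21 in Mut3 replicates 2 and 3, where replicate 1 had no Pdcd1 count. Pdcd1 per TPM of the T cell receptor complex gene Cd3g was 0.00357, 0.0101 and 0.0110 in CT2A, 0.00307, 0.00787 and 0.00387 in GL261, 0.00914, 0.00587 and 0.00747 in 005, and 0, 0.0218 and 0.0119 in Mut3, so the ranges of the 4 tumors overlapped. Neither ratio was tested, and both rest on few counts in Mut3.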
